A study of Rattus with 6 samples.

Results

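The genes described here are the enzymes of glycolysis, the regulators of pyruvate use, and the genes of the cellular response to low oxygen in RC-4B/C cells, a line from a rat pituitary adenoma. They were chosen by gene symbol from a list of 40, of which 35 had rows in the deposited exon table of 12801 genes, and 5 (Tpi1, Gapdh, Eno2, Pdk4 and Egln3) had none and were left out. Polyadenylated RNA was sequenced from 3 libraries of cells treated with aspirin (acetylsalicylic acid, ASA), which blocks the cyclooxygenases, and from 3 libraries of cells given dimethyl sulfoxide (DMSO), the solvent. The comparison addresses how the transcriptome of these cells responds to aspirin. Both groups are the same line with no other agent named. Dose and duration are absent from the labels used here, as is any word on separate cultures, and the p-values therefore reflect the spread among these libraries alone, which may be technical.

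Glycolysis splits glucose into pyruvate. Hexokinases trap glucose in the cell, phosphofructokinase commits it to breakdown, and the later enzymes pass from the triose phosphates to pyruvate. Lactate dehydrogenase reduces pyruvate to lactate, or pyruvate dehydrogenase passes it towards the citric acid cycle inside the mitochondrion. Many of these genes are targets of the hypoxia-inducible factor HIF, whose alpha subunit is hydroxylated by the oxygen-dependent EGLN enzymes and then marked for destruction by the VHL protein. When oxygen falls, the subunit accumulates and raises genes such as Vegfa, Bnip3 and Ankrd37.

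Gene levels are RPKM, meaning recovered reads summed over a gene's listed exons and scaled to exon length and library depth. Reads recovered from the table numbered 66492446 to 92073424 in the ASA libraries and 82189700 to 94486062 in the DMSO libraries, and the members had 159 (Bnip3, DMSO replicate 1) to 190130 reads (Gpi, DMSO replicate 2). The pituitary label was checked on hormone-cell markers: Prl, the prolactin gene, stood at 14037 to 62101 RPKM in ASA and at 22006 to 62170 RPKM in DMSO libraries, while Gh1, Tshb, Lhb and Fshb had no rows. Pou1f1 overlapped between the groups (603 to 804 RPKM in ASA, 584 to 714 in DMSO libraries). Drd2 was lower in every ASA library (49.8 to 126 RPKM against 165 to 197 in DMSO libraries, limma adjusted p = 0.0587). The summed RPKM of 3 of 4 corticotroph and melanotroph markers was 39.3 to 45.9 in ASA and 30.1 to 39.6 in DMSO libraries. ASA replicate 2 stood apart from the other libraries, with 497 exons at 0 reads against 4 to 13 elsewhere and 5.44% of its reads in mitochondrially encoded genes against 2.65% to 3.22%. Some markers of other cell types also differed between the groups. The summed RPKM of 3 of 7 macrophage and leukocyte markers was 69.5 to 240 in ASA and 22.2 to 38.3 in DMSO libraries, with Ptprc, Csf1r, Itgam and Adgre1 without rows. Cd68 and Itgax were higher in every ASA library, while Cd14 was at 3.28 to 19.3 RPKM in ASA and 18.2 to 34.5 in DMSO libraries. The summed RPKM of 3 of 5 fibroblast and pericyte markers was 2143 to 3284 in ASA and 1104 to 1166 in DMSO libraries, nearly all of it Dcn. Dcn and Pdgfrb were higher in every ASA library, while the groups overlapped in Lum (mean 49.0 RPKM in ASA, 54.5 in DMSO). Col1a1 and Col1a2 were without rows. The sum of 2 of 5 gonadotroph markers was 1.84 to 5.56 in ASA and 25.9 to 29.1 in DMSO libraries, a difference carried by Cga, while the groups overlapped in Nr5a1 (mean 1.19 in ASA, 1.33 in DMSO). None of the endothelial or folliculostellate markers had rows. The part of these markers and of ASA replicate 2 in the results below was not tested beyond the values given without that library.

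In ASA libraries 7 genes of glycolysis and lactate formation and 2 hypoxia-induced genes had lower levels, and hexokinase 2 a higher one. Among the 35 members, 9 fell (Gpi, Pfkl, Pfkm, Pgk1, Pgam1, Eno1, Ldha, Ankrd37 and Higd1a), 1 rose (Hk2), and 25 did not pass the test (limma on log2-transformed RPKM with a pseudocount of 0.1, threshold 0.05 on the Benjamini-Hochberg adjusted p across the table). Of all 12502 genes tested, 4.99% fell and 6.21% rose, 11.2% in either direction. The median log2 fold change of the members was -0.50, against -0.06 over all genes tested. The groups did not overlap in 18 of the 35 members, and they did not overlap in 38.7% of all genes. In bulk RNA, fewer cells of a type and less RNA per cell cannot be told apart.

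The calls depended on the libraries that made up the groups. The groups did not overlap in any of the 10 called members, so leaving out a library could not change their direction. In the 6 fits that left out a library, none of their fold changes moved by more than 1.5 times. Without ASA replicate 2, 10 members fell and 2 rose, with all 10 called members kept. Without ASA replicate 1, 10 fell and 1 rose, with 9 of the called members kept. There Hk2 was lost (adjusted p = 0.0621), while Hk1 passed as lower and Pfkfb2 as higher. Without DMSO replicate 2, 6 fell and none rose. Only Ldha and Ankrd37 passed without DMSO replicate 1. Among all genes, 2618 passed without ASA replicate 2 and 2018 without ASA replicate 1. Without DMSO replicate 2 there were 632, and without DMSO replicate 1 there were 91. No gene in the whole table passed without ASA replicate 3 or without DMSO replicate 3 (smallest adjusted p of limma 0.0806 and 0.0789). There 14 and 13 members had an unadjusted p under 0.05 with a lower value in ASA, and 2 each with a higher one. In the same fits 2924 and 2342 of all genes had an unadjusted p under 0.05, in either direction.

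**Figure D1:**
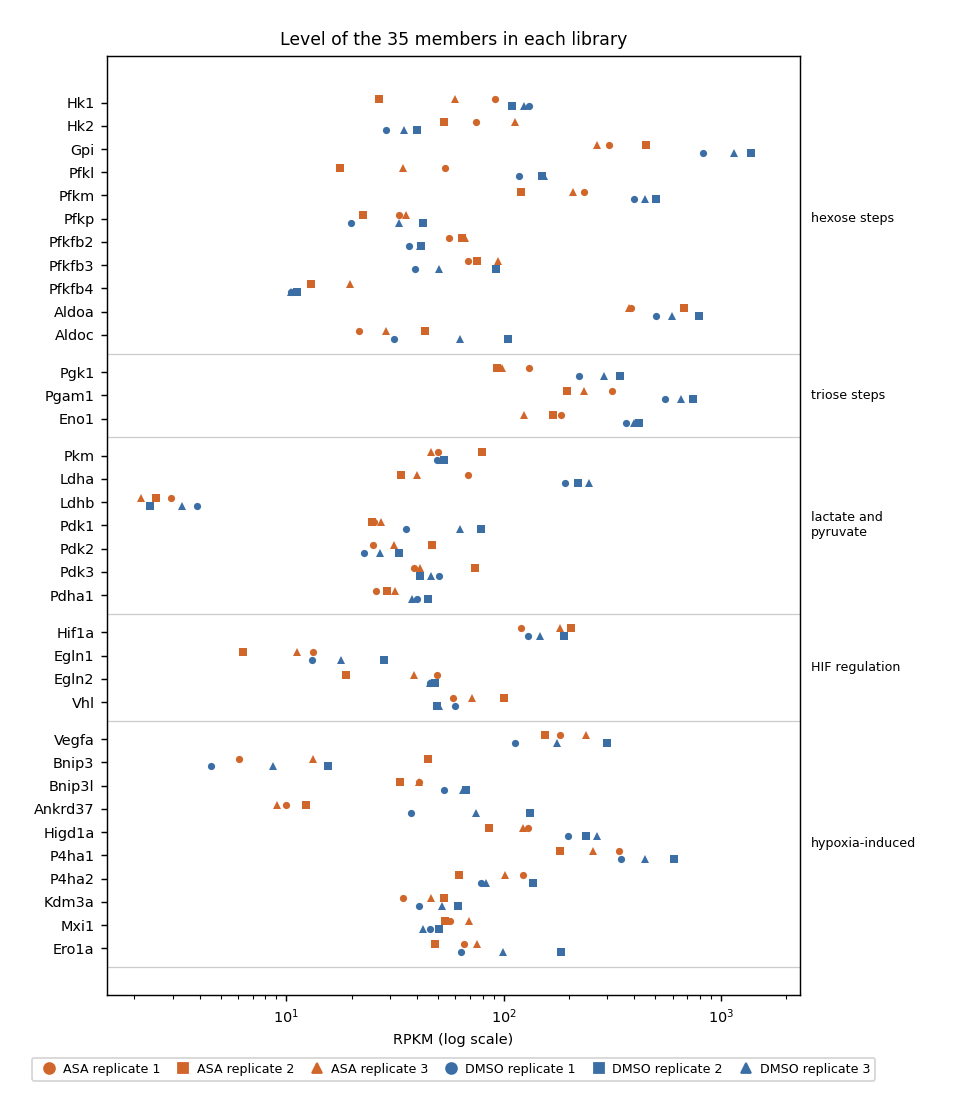
RPKM (log axis) of the 35 members in each library, ASA orange and above DMSO in blue, with a symbol for each replicate, grouped by role. The 3 genes of the triose steps lie wholly to the left in ASA, and Ldhb is the lowest member, between 2.15 and 3.90.

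Among the enzymes that act on hexoses, the isomerase and 2 of the phosphofructokinases fell, and hexokinase 2 rose. Gpi, which interconverts glucose and fructose phosphates, had the highest mean of the members over all libraries (732 RPKM). In each ASA library Aldoa was higher (385, 675 and 378 RPKM in replicates 1, 2 and 3). The level of Gpi was 304, 452 and 270.0 RPKM in ASA replicates 1, 2 and 3, against 831, 1382 and 1152 RPKM in DMSO replicates 1, 2 and 3. Every ASA library lay well under every DMSO library, a 3.29-fold fall (log2 fold change -1.72 ± 0.28 SE, adjusted p = 0.0179). All 18 listed exons of Gpi were lower, by 1.55 to 2.05 on the log2 scale.

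Pfkl, the liver-type phosphofructokinase, had 54.0, 17.6 and 34.5 RPKM in ASA replicates 1, 2 and 3, against 118, 151 and 153 in DMSO replicates 1, 2 and 3. It fell 4.35-fold, with no overlap and with ASA replicate 2 lowest (log2 fold change -2.12 ± 0.38 SE, adjusted p = 0.0211). Pfkm, the muscle type and the most abundant of the 3 isoenzymes in every library, had 234, 120 and 209 in ASA, against 400, 501 and 449 in DMSO libraries. It fell 2.49-fold (adjusted p = 0.0301). The platelet type, Pfkp, had 33.2, 22.6 and 35.4 in ASA, against 19.9, 42.7 and 32.9 in DMSO libraries, with overlapping groups and a log2 fold change of -0.02 (95% interval -0.77 to 0.73).

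Hk2, the inducible hexokinase, had 75.0, 53.1 and 113 RPKM in ASA replicates 1, 2 and 3, against 28.8, 39.9 and 34.7 in DMSO replicates 1, 2 and 3. It rose 2.24-fold with no overlap and with all 18 listed exons higher (log2 fold change 1.16 ± 0.29 SE, adjusted p = 0.0452). Its call was the least steady of the 10, since it was lost in 5 of the 6 fits without a library, all but that without ASA replicate 2 (adjusted p 0.0130 to 0.171). Hk1, the constitutive hexokinase, had 91.1, 26.8 and 60.0 RPKM in ASA, against 131, 109 and 124 in DMSO libraries. The groups did not overlap, but the ASA libraries spread widely and the difference missed the threshold (log2 fold change -1.20 ± 0.41 SE, adjusted p = 0.0950). In the 6 fits with a library left out its adjusted p was 0.0313 to 0.252, under the threshold in the fit lacking ASA replicate 1.

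The remaining hexose members did not pass. The PFKFB enzymes make and break down fructose 2,6-bisphosphate, an activator of phosphofructokinase. Pfkfb2 had 56.2, 64.2 and 66.3 RPKM in ASA, against 36.5, 41.6 and 41.3 in DMSO libraries, with no overlap and a log2 fold change of 0.64 ± 0.17 SE just short of the threshold (adjusted p = 0.0519). Leaving out ASA replicate 1 or 2 took it past (adjusted p 0.0320 to 0.216 over the 6 fits). The log2 fold change was 0.48 for Pfkfb3 (adjusted p = 0.352) and 0.47 for Pfkfb4 (adjusted p = 0.252). The aldolase genes, whose products cleave the hexose into trioses, overlapped between the groups, with a log2 fold change of -0.42 for Aldoa (adjusted p = 0.359) and -0.98 for Aldoc (adjusted p = 0.189). Of the Aldoa exon values, 62.5% did not come out as whole reads.

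**Figure D2:**
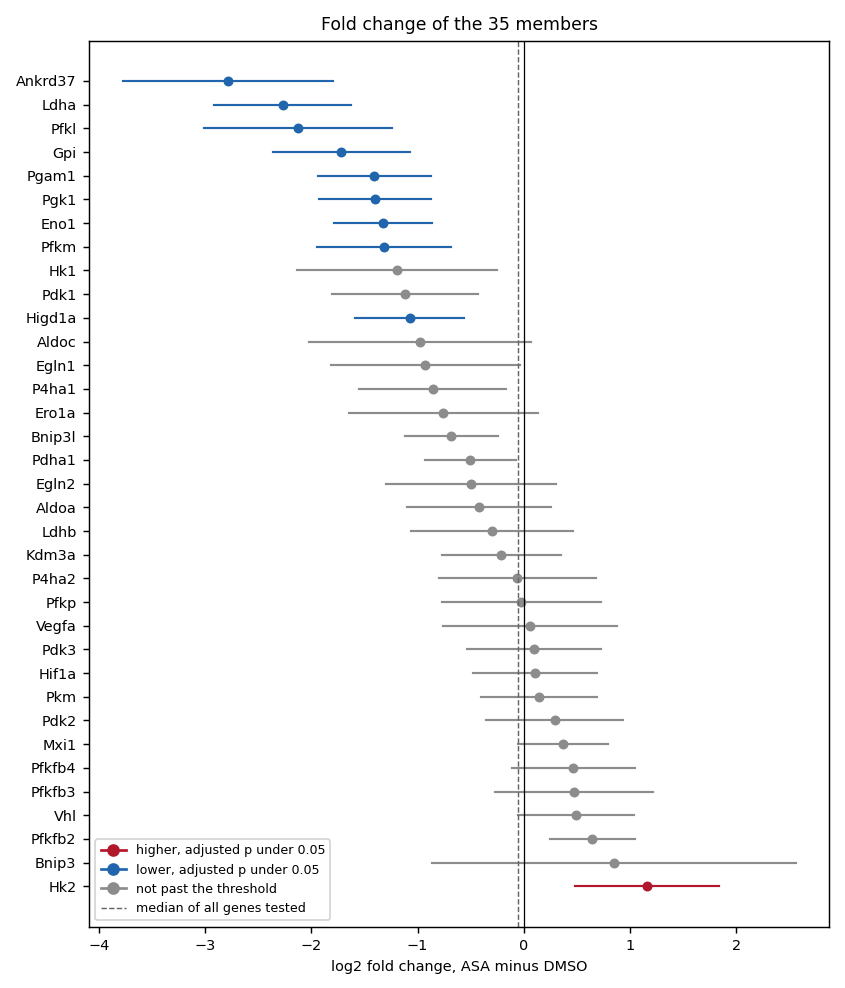
Log2 fold change (ASA minus DMSO) of the 35 members with 95% intervals from limma, ordered from lowest to highest. The dashed line is the median of all genes tested, -0.06. The 9 genes that fell lie between Ankrd37 (-2.78) and Higd1a (-1.07), and Hk2 (1.16) is at the other end.

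The shares of some isoenzymes in the summed level of their family did not overlap between the groups, among the hexokinases, phosphofructokinases and pyruvate dehydrogenase kinases, but none passed a test. They were computed after the gene values had been seen, and RefSeq names no pseudogene after the genes of these 3 families. Hk2 made up 45.1%, 66.4% and 65.2% of the summed Hk1 and Hk2 RPKM in ASA replicates 1, 2 and 3, against 18.1%, 26.7% and 21.9% in DMSO replicates 1, 2 and 3. In 2 of the 3 ASA libraries Hk2 was thus the more abundant transcript per length, and in no DMSO library. The sum of both genes was 166, 79.9 and 173 RPKM in ASA and 160, 149 and 158 in DMSO libraries, so it was low in ASA replicate 2 alone. For phosphofructokinase the sum of 3 genes was 321, 160 and 279 RPKM in ASA and 538, 695 and 635 in DMSO libraries. Pfkp took 10.3%, 14.1% and 12.7% of it in ASA and 3.70%, 6.15% and 5.17% in DMSO libraries. Pfkl took 13.4% ± 3.05 in ASA, against 22.6% ± 1.35 in DMSO libraries (SD, n = 3 each). Pfkm held 70.7% to 75.0% in all libraries, with overlapping groups. Among the pyruvate dehydrogenase kinases, Pdk1 took 24.2% ± 6.31 in ASA, against 43.4% ± 9.64 in DMSO libraries, and Pdk2 30.6% ± 2.17 in ASA and 20.8% ± 0.973 in DMSO libraries. Of 13 such shares in 5 families, 6 did not overlap: those of Hk2 and its complement Hk1, Pfkp, Pfkl, Pdk1 and Pdk2. Each had a two-sided exact permutation p of 0.1, the smallest that 3 against 3 libraries allow (0.217 after Benjamini-Hochberg adjustment over the 13). For Hk2 and Hk1 this outcome was fixed by the gene values, since Hk2 was higher and Hk1 lower in every ASA library.

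**Figure D3:**
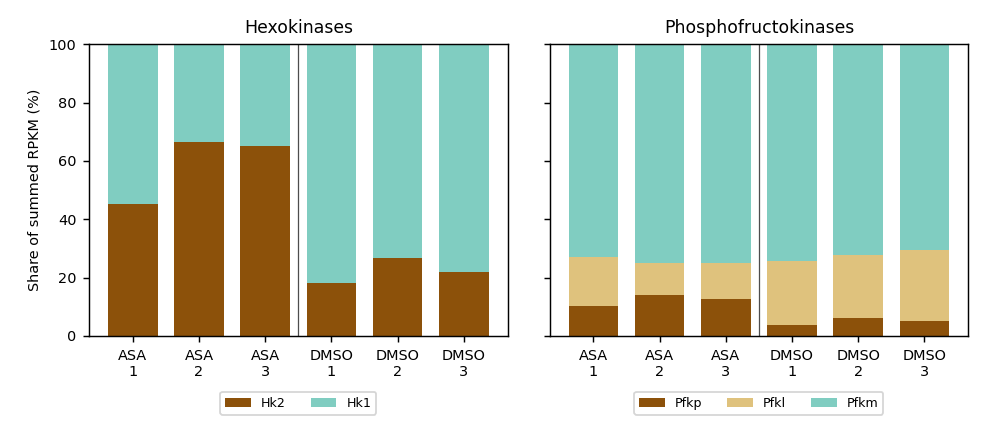
Share of each isoenzyme gene (percent of the summed RPKM of its family) in the ASA libraries, left of the line, and the DMSO libraries, right of it. Hk2 takes 45.1% to 66.4% in ASA and 18.1% to 26.7% in DMSO libraries, and Pfkm stays between 70.7% and 75.0%.

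The 3 members of the triose steps with rows all fell, by like amounts. Pgk1, phosphoglycerate kinase, which makes the first ATP of the pathway, had 131, 93.2 and 97.9 RPKM in ASA replicates 1, 2 and 3, against 223, 344 and 291 in DMSO replicates 1, 2 and 3. Pgam1, phosphoglycerate mutase, had 314, 196 and 234 in ASA, against 554, 741 and 655 in DMSO libraries. Eno1, the ubiquitous enolase, had 183, 169 and 125 in ASA, against 366, 419 and 398 in DMSO libraries. In all 3 genes the highest ASA library lay under the lowest DMSO library. The falls were 2.65-fold for both Pgk1 and Pgam1 and 2.51-fold for Eno1 (adjusted p = 0.0179, 0.0179 and 0.0148). ASA replicate 1 was the highest ASA library in each.

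At the end of the pathway Ldha fell and the other members did not pass. Ldha encodes the lactate dehydrogenase subunit that favours lactate formation. It had 68.6, 33.8 and 40.0 RPKM in ASA replicates 1, 2 and 3, against 192, 219 and 247 in DMSO replicates 1, 2 and 3. The fall was 4.82-fold without overlap (log2 fold change -2.27 ± 0.28 SE, adjusted p = 0.0121). The heart-type subunit gene, Ldhb, was the lowest member, with 2.95, 2.52 and 2.15 RPKM in ASA against 3.90, 2.37 and 3.31 in DMSO libraries, overlapping groups and a log2 fold change of -0.30 (95% interval -1.06 to 0.46).

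The pyruvate dehydrogenase kinases shut off the entry of pyruvate into the citric acid cycle, and Pdk1 is a known HIF target. It had 25.3, 24.7 and 27.4 RPKM in ASA replicates 1, 2 and 3, against 35.6, 78.3 and 63.1 in DMSO replicates 1, 2 and 3. The groups did not overlap, and the ASA values were close together while the DMSO values spread 2.20-fold from lowest to highest. The log2 fold change of -1.12 ± 0.30 SE missed the threshold (adjusted p = 0.0507), and it passed with a pseudocount of 1 (adjusted p = 0.0492) or a minimum mean RPKM of 2 (0.0495). The log2 fold change was 0.29 for Pdk2 (adjusted p = 0.509) and 0.10 for Pdk3 (adjusted p = 0.832). Pdha1, the catalytic subunit that these kinases phosphorylate, averaged 28.8 ± 2.86 in ASA and 40.9 ± 3.60 in DMSO libraries, without overlap (log2 fold change -0.50 ± 0.18 SE, adjusted p = 0.114).

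Pkm, which encodes the pyruvate kinase of most tissues, had overlapping gene totals made of exons with opposite differences. Its total was 49.9, 79.3 and 46.3 RPKM in ASA, against 49.5, 53.1 and 52.3 in DMSO libraries (log2 fold change 0.14 ± 0.24 SE, adjusted p = 0.718). Of its 11 listed exons, 3 were lower in ASA and 8 higher. Exon 3 in the order of transcription had 44.7, 45.1 and 46.4 RPKM in ASA replicates 1, 2 and 3, against 107, 115 and 109 in DMSO replicates 1, 2 and 3. This was a log2 difference of -1.28 in its own values, and of -1.74 relative to the other exons of the gene (limma diffSplice, adjusted p = 0.00483 over 116221 exons). It was the one exon called among the 387 exons of the members, while 0.0559% of all exons were called. The call held without any 1 of the ASA libraries (adjusted p up to 0.0134) and was lost without any 1 of the DMSO libraries (adjusted p 0.166 to 0.355), with a difference of -1.58 to -1.88 in all 6 fits.

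Exon 7 had 42.3, 43.3 and 41.6 RPKM in ASA, against 20.7, 22.3 and 19.6 in DMSO libraries, so it went the other way with as little spread. The last exon, 11, had 47.5, 62.0 and 43.9 in ASA, against 93.8, 99.4 and 97.0 in DMSO libraries. Neither passed with all libraries, at a usage adjusted p of 0.0737 for exon 11 and an unadjusted p of 0.0116 for exon 7. Without ASA replicate 2, exons 3, 7, 9 and 11 passed (adjusted p = 2.42e-06, 0.0116, 0.0206 and 4.44e-05).

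Exons 8 and 9 are adjacent, both 167 bases long, and are the mutually exclusive exons of the M1 and M2 isoforms, in that order. M2 is the form known from proliferating cells and tumours. Exon 8 had 96.1, 208 and 94.9 RPKM in ASA and 59.1, 54.9 and 54.2 in DMSO libraries. Exon 9 had 105, 230 and 94.1 in ASA and 50.1, 52.3 and 50.3 in DMSO libraries. Both were thus higher in every ASA library, most in ASA replicate 2. The M1 exon took 48.5% ± 1.51 of their sum in ASA, against 52.4% ± 1.53 in DMSO libraries (SD, n = 3 each), a difference of -3.93 percentage points without overlap. The two-sided exact permutation p was 0.1, the smallest this design allows.

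Exon values within a gene were far from even in some of the members. Ldha exons ranged from 2.46 to 508 RPKM in the mean of all libraries and Eno1 exons from 5.32 to 2083, while the 18 exons of Gpi lay between 559 and 1315. RefSeq (assembly GRCr8, used for names alone) lists pseudogenes named after 11 of the 35 members, among them 31 for Eno1, 30 for Ldha, 19 for Pkm, 13 for Pgam1, 9 for Aldoa and 8 each for Pgk1 and Bnip3, and 81 for Gapdh, one of the genes without rows. In these 11 the ratio of the highest to the lowest exon had a median of 12.9, and in the other 24 it was 2.73. How reads with several matches were counted is not given in the sources used here, and its part in these values was not tested, so the levels of these genes are uncertain. All 7 Ldha exons, all 11 Eno1 exons and all 11 Pgk1 exons had lower means in ASA. Taking the median exon as the value of a gene kept Ldha, Pgk1 and Pgam1 past the threshold and lost Eno1 (log2 fold change -0.90, adjusted p = 0.109), while Pkm became higher (1.02, adjusted p = 0.0291).

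**Figure D4:**
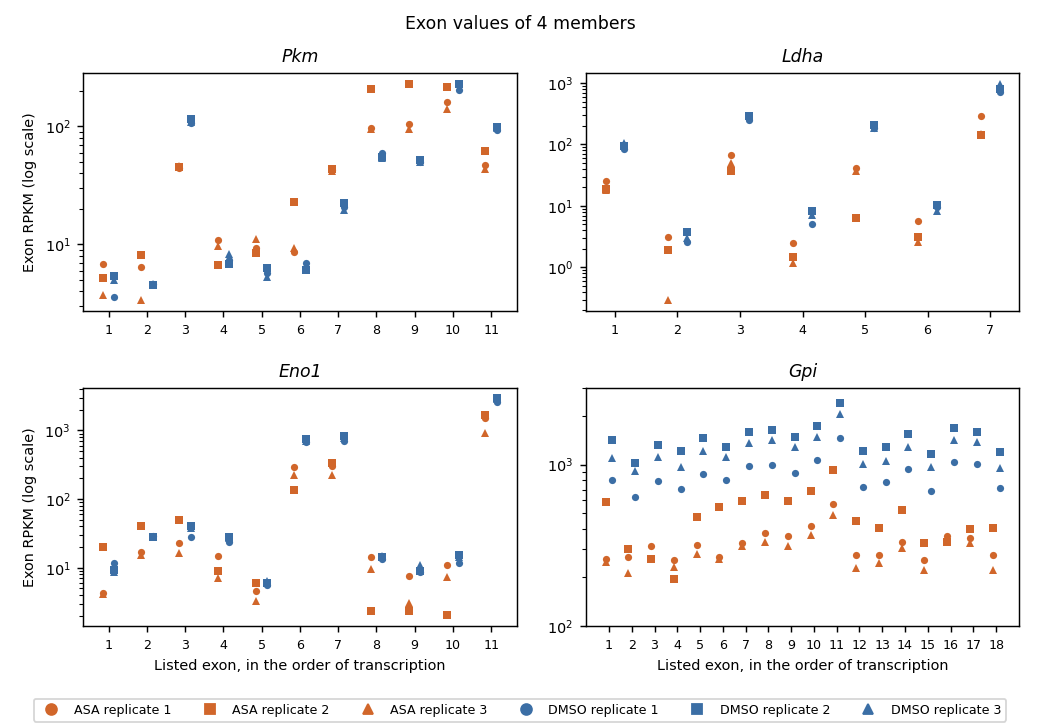
RPKM (log axis) of each listed exon of Pkm, Ldha, Eno1 and Gpi in the order of transcription, ASA orange and left of DMSO in blue. Exon 3 of Pkm is lower in ASA (44.7 to 46.4 against 107 to 115) while exons 7 to 9 are higher, and Gpi exons are even by comparison.

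None of the 4 regulators of HIF with rows passed limma's test, and Egln1 had the smallest adjusted p of them (0.151). Hif1a, the oxygen-labile subunit itself, had 120, 205 and 182 RPKM in ASA replicates 1, 2 and 3, against 130, 189 and 147 in DMSO replicates 1, 2 and 3. The groups overlapped (log2 fold change 0.11, 95% interval -0.48 to 0.69). HIF is controlled mainly through the stability of the protein, which RNA does not show. Egln1, the main prolyl hydroxylase and a HIF target, averaged 10.3 ± 3.57 in ASA and 19.7 ± 7.71 in DMSO libraries (log2 fold change -0.93 ± 0.38 SE, adjusted p = 0.151). The log2 fold change was -0.50 for Egln2 (adjusted p = 0.360) and 0.49 for Vhl (adjusted p = 0.203). ASA replicate 2 was farthest out in both, lowest in Egln2 (18.8 RPKM) and highest in Vhl (101 RPKM).

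Of the 10 genes known to be induced by low oxygen, 2 fell, none rose and 8 did not pass. Ankrd37, an ankyrin-repeat gene and HIF target, had 9.93, 12.4 and 9.05 RPKM in ASA replicates 1, 2 and 3, against 37.7, 132 and 74.8 in DMSO replicates 1, 2 and 3. It had the largest fold change of the 35 members, a 6.89-fold fall (log2 fold change -2.78 ± 0.43 SE, adjusted p = 0.0156). The ASA libraries were close together, and the DMSO libraries, all higher, spread 3.51-fold. Higd1a, a mitochondrial protein that supports respiration in low oxygen, had 129, 85.8 and 122.5 in ASA, against 197, 239 and 270 in DMSO libraries. It fell without overlap (log2 fold change -1.07 ± 0.22 SE, adjusted p = 0.0297).

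P4ha1, a collagen prolyl hydroxylase subunit and the most abundant of these 10, had 338, 182 and 259 RPKM in ASA replicates 1, 2 and 3, against 347, 611 and 448 in DMSO replicates 1, 2 and 3. The groups did not overlap, but by a narrow gap between ASA replicate 1 and DMSO replicate 1 (log2 fold change -0.86 ± 0.30 SE, adjusted p = 0.0986). Bnip3l, a receptor for mitophagy, had 40.9, 33.4 and 40.8 RPKM in ASA, against 53.1, 67.2 and 65.2 in DMSO libraries (log2 fold change -0.69 ± 0.19 SE, adjusted p = 0.0562). Leaving out ASA replicate 2 took it past the threshold (adjusted p 0.0396 to 0.250 over the 6 fits).

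Its relative Bnip3 had 6.04, 44.9 and 13.2 RPKM in ASA replicates 1, 2 and 3, against 4.52, 15.5 and 8.65 in DMSO replicates 1, 2 and 3. Its log2 fold change of 0.85 (adjusted p = 0.465) rested on ASA replicate 2, without which it was 0.08. In that library its last exon stood at 156 RPKM, against 6.82 and 17.3 in the other ASA libraries. Vegfa, the angiogenic growth factor, had 183, 154 and 239 in ASA, against 113, 299 and 177 in DMSO libraries. The ASA values lay inside the DMSO range (log2 fold change 0.06, 95% interval -0.76 to 0.88). The log2 fold change was -0.06 for P4ha2, a second collagen hydroxylase subunit, and -0.21 for Kdm3a, a histone demethylase. It was 0.37 for Mxi1, an antagonist of MYC, and -0.76 for Ero1a, an oxidase of the endoplasmic reticulum (adjusted p 0.221 to 0.911 for these 4).

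The DMSO libraries themselves differed in these genes. In 26 of the 35 members DMSO replicate 2 was the highest and DMSO replicate 1 the lowest of the 3 DMSO libraries, an order found in 24.8% of all genes tested, and 4 members had the opposite order, found in 34.3%. Among the 10 hypoxia-induced members 8 had it, and 21 of 47 tested genes of a further list of hypoxia-induced genes (44.7%). The spread was widest in Ankrd37 (3.51-fold from lowest to highest DMSO library), Bnip3 (3.43-fold), Aldoc (3.34-fold), Ero1a (2.91-fold) and Vegfa (2.64-fold), against a median of 1.27-fold over all genes. The ASA libraries spread more over all genes (median 1.74-fold) and over the 35 members (1.67-fold against 1.44-fold in DMSO libraries). In the 10 hypoxia-induced members they spread less (1.54-fold against 1.75-fold). The median of the 10 hypoxia-induced members relative to the DMSO mean was -0.35, 0.46 and 0.00 (log2) in DMSO replicates 1, 2 and 3. It was -0.52, -0.75 and -0.30 in ASA replicates 1, 2 and 3, so DMSO replicate 1 lay within the ASA range. Prl took the same order, with 22006, 62170 and 41835 RPKM in DMSO replicates 1, 2 and 3. Over all genes tested the medians were -0.28 to 0.08 in the ASA and -0.03 to 0.03 in the DMSO libraries. This order of the DMSO libraries was picked after the values were seen, and what sets it was not tested.

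**Figure D5:**
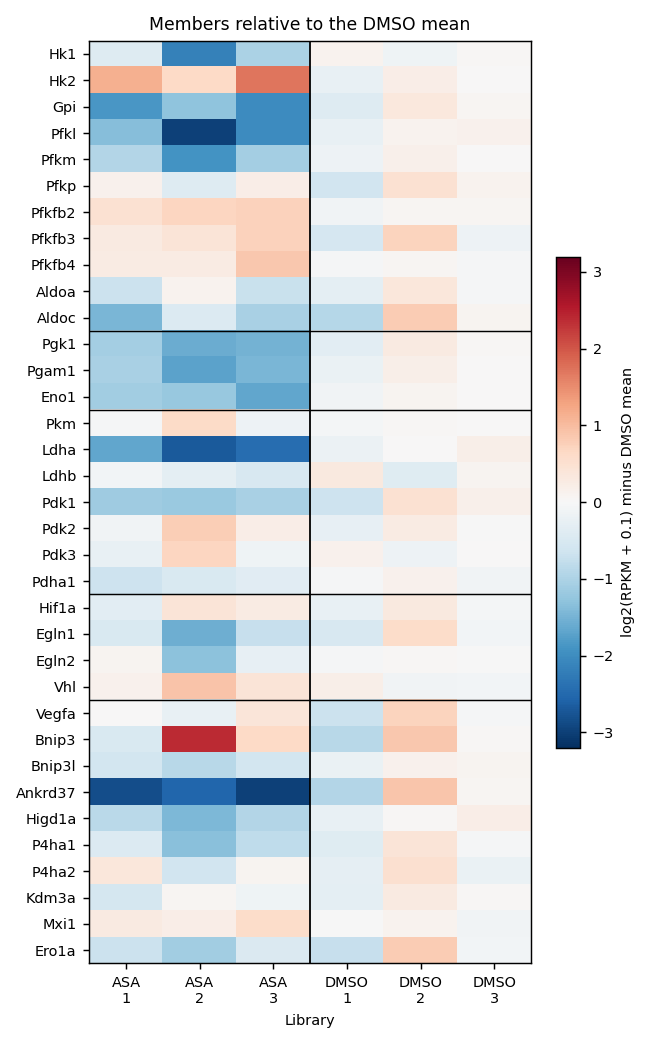
Log2(RPKM + 0.1) of each member minus its DMSO mean, by library, ASA left of DMSO, red above and blue below the mean. DMSO replicate 2 is red and DMSO replicate 1 blue in most members, and Gpi, Pfkl, Pfkm, Pgk1, Pgam1, Eno1, Ldha, Ankrd37 and Higd1a are blue in all 3 ASA libraries.

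In neighbouring pathways the share of genes called was 9.09% to 11.8% in 4 lists, 20% of glycogen genes, 19.1% of further hypoxia-induced genes and 0 in the pentose phosphate pathway, against 11.2% of all genes tested. Of 17 tested other enzymes of glycolysis and gluconeogenesis (25 listed), 1 rose and 1 fell. Adpgk, the ADP-dependent glucokinase, rose 1.82-fold to 39.3 ± 0.710 RPKM in ASA, against 21.6 ± 2.89 in DMSO libraries (adjusted p = 0.0331). Pgm1, the phosphoglucomutase that joins glycogen to glycolysis, fell 2.16-fold (42.9 ± 12.4 in ASA and 90.7 ± 10.8 in DMSO libraries, adjusted p = 0.0349). In glycogen metabolism, with 10 tested of 11, Ugp2, which makes UDP-glucose, rose 2.68-fold (174 ± 29.6 in ASA and 64.3 ± 3.01 in DMSO libraries, adjusted p = 0.0126), and the branching enzyme gene Gbe1 fell 2.04-fold (adjusted p = 0.0352).

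A list of 9 genes covered pyruvate entry into mitochondria and pyruvate dehydrogenase with its regulators. Of these Pdhb alone passed, 1.56-fold lower (adjusted p = 0.0492). The log2 fold change was negative in 8 of the 9, and in 6691 of all 12502 genes tested. Of its exon values 33.3% were not whole reads. None of 8 tested genes of the pentose phosphate pathway passed limma's test, and 2 had an unadjusted p under 0.05. Of 11 tested transport genes 1 rose, the lactate and pyruvate transporter gene Slc16a1, with 626, 685 and 630 RPKM in ASA and 393, 368 and 431 in DMSO libraries (1.63-fold, adjusted p = 0.0415). The glucose transporter gene Slc2a1, a HIF target, had 134, 174 and 135 RPKM in ASA and 105, 146 and 107 in DMSO libraries (log2 fold change 0.31 ± 0.21 SE, adjusted p = 0.345).

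Among 17 tested partners of HIF and VHL (20 listed), Arnt2, a dimerisation partner of HIF, rose 1.77-fold (104 ± 4.88 in ASA and 58.8 ± 4.73 in DMSO libraries, adjusted p = 0.0265). Eloc, elongin C of the VHL ubiquitin ligase, fell 2.51-fold (14.1 ± 5.14 in ASA and 33.7 ± 3.52 in DMSO libraries, adjusted p = 0.0408). Arnt had a log2 fold change of 0.69 ± 0.28 SE (adjusted p = 0.143), and Epas1 had no rows. Of 47 tested further hypoxia-induced genes (59 listed), 6 of them also in the lists above, 6 fell and 3 rose, 12.8% and 6.38%, with a median log2 fold change of -0.17. Cox4i2, the oxygen-regulated isoform of a cytochrome oxidase subunit, fell 8.32-fold, with 13.0, 13.0 and 9.36 RPKM in ASA replicates 1, 2 and 3 against 39.4, 204 and 116 in DMSO replicates 1, 2 and 3 (adjusted p = 0.0209). Without DMSO replicate 1, its lowest DMSO library, the fall was 13.1-fold. Its DMSO libraries stood in the same order as those of Ankrd37. Each of the genes called in these lists missed the threshold without ASA replicate 3 and without DMSO replicate 3, as did every gene in the table.

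In the coordinates of the rat build Rnor_6.0, taken over their listed exons, some of the members described lie as follows. Ldha (ENSRNOG00000013009) spans 102902065 to 102909206 of chromosome 1, Gpi (ENSRNOG00000023150) 90063685 to 90091221 of chromosome 1, and Eno1 (ENSRNOG00000017895) 167290794 to 167299302 of chromosome 5. Ankrd37 (ENSRNOG00000031335) spans 49463083 to 49465211 of chromosome 16 and Hk2 (ENSRNOG00000006116) 113561566 to 113609701 of chromosome 4. Pkm (ENSRNOG00000011329) spans 64489942 to 64502426 of chromosome 8, with exon 3 at 64493314 to 64493445 and the M1 and M2 exons at 64498948 to 64499114 and 64499492 to 64499658.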

How the data were processed

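The authors deposited log2 RPKM values, 1 row per exon (118147 exons) and 1 column per library. Per the submitters' processing notes, edgeR 3.26.8, TopHat2 2.1.0 with Bowtie2, Trim Galore 0.4.1 and cutadapt 1.14 were among the tools, and Rnor_6.0 was the build. Which program counted reads, and how it treated strand and multiply matching reads, is not given in the sources used here. Without stated strand use, reads of overlapping antisense genes cannot be told apart. The log was undone, a small constant that the log had carried removed, and exons summed by gene identifier. After that 95.7% to 96.8% of values were whole reads within 0.02 read. Each listed exon exceeds 10 reads in 4 or more of the 6 libraries, which keeps exons expressed in a single group out of the table.

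ASA was compared with DMSO with limma 3.58.1 in R 4.3.3 (lmFit and trended eBayes, two-sided tests) on log2(RPKM + 0.1), without covariates, for the 12502 genes whose mean RPKM reached 0.5. All 35 members passed this filter. Fold changes are on the log2(RPKM + 0.1) scale. Exon usage was tested with limma's diffSplice on exons with the same minimum. Both fits were run on simulated data with independent normal noise, of the same spread for every exon in the exon fit. Such data do not show how the fits behave with an outlying library or uneven exons. The exact permutation test was used for shares. The members and lists were chosen with earlier results of these data known. Every member is named. Values by library are given for called members, the most abundant of each role and some of particular spread, chosen after their values were seen. From each further list up to 4 called genes by smallest p are named (1 gene that this rule picks is not reported here), with Slc2a1, Epas1 and Arnt whatever their result. Alternatives were other pseudocounts, filters, scaling, variance models, voom, the median exon and each library left out. Alternatives for the isoenzyme shares were chosen after seeing the data.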

Additional observations from a re-analysis of the deposited data

How the results depend on the processing

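No paired analysis was possible because the labels give the libraries no replicate numbers that the groups share. Limma called 1400 genes in all, 9 members lower and 1 higher. Library quality weights gave 5745 genes, 17 lower and 6 higher members. The median exon per gene gave 900 genes and 2 higher members (Hk2 and Pkm), and a fit with no mean-variance trend gave 0 higher members (Hk2 at adjusted p = 0.0630). Leaving out 1 library each gave 0 to 2618 genes, 0 to 10 lower members, 0 to 2 higher members and 0 to 4 member exons called by usage. In the fits with no member called, those without ASA replicate 3 or DMSO replicate 3, 16 and 15 members had an unadjusted p under 0.05. So did 2924 and 2342 of all genes. Of 90 values of the called members under the other settings, 88 kept their call and direction, and of 60 with a library left out 27 did. The other 33 lost the call only. With a library left out no direction could reverse, since the groups did not overlap in the called members. No called value reversed under the other settings. The shift of all genes under median-of-ratios scaling was 0.04 (log2). All 42 recomputed values of the 6 isoenzyme shares without overlap kept their sign. Those with a library left out could not change it, so the median exon per gene was the only setting that could. The Pkm M1 share differed by -3.07 to -4.80 percentage points over the 6 fits without a library. Every member had at least 159 reads in each library, so the precision is set mainly by the spread among 3 libraries a group.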
